A study of Mus musculus with 12 samples.

Results

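The 10 circadian clock genes described here are Arntl (also named Bmal1), Clock, Npas2, Per1, Per2, Per3, Cry1, Cry2, Nr1d1 and Dbp. They were chosen by name from the 55385 genes of the expression table, and all 10 passed the filter on low values that left 21393 genes to test. Total RNA was taken from the brains of 12 male wild type C57/BL6J mice in 4 groups of 3. The C_W mice were unstressed and were given water, the C_O mice were unstressed and received a daily 200 mg/kg of krill oil over 5 weeks, the MS_W mice went through 4 weeks of chronic unpredictable mild stress (CUMS) with water, and the MS_O mice went through CUMS with krill oil. Krill oil was given by intragastric administration, and the water groups were treated with an equal volume of water. The mice were bought at 8 weeks of age, and the 3 mice of a group were drawn at random from 8. Each brain gave 1 library, and MS_W95, for instance, is mouse 95 of the MS_W group. The stressors of CUMS included irregular lighting and strobe light, whereas the housing lights were otherwise on from 7 to 19 h, so the stressed groups also differed in light. The hour at which each brain was taken is not given in the sources used here.

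The mammalian clock is a feedback loop of transcription that runs in most cells of the body. BMAL1 (the product of Arntl) pairs with CLOCK or NPAS2 and binds E-boxes in the promoters of the Per, Cry, Nr1d1 and Dbp genes. PER and CRY proteins enter the nucleus and repress that pair, while NR1D1 represses Arntl through ROR response elements and DBP activates genes with D-boxes, Per3 among them. In the brain the suprachiasmatic nucleus of the hypothalamus is set by light and keeps other regions in time, and Per1 and Per2 also respond to acute signals such as light and glucocorticoids.

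The 3 kinds of element through which the loop is written are shown here in promoters of 4 members, because each stands for 1 arm of the loop. RefSeq gave at least 1 window for 9 of the 10 genes (GRCm38.p6), and each window ran from 250 bases before to 50 bases after a transcript start. Both strands were searched for the E-box CACGTG, the core AGGTCA of the ROR response element and the D-box forms TTATGTAA and TTACGTAA. Capitals mark the letters found (TGACCT is AGGTCA on the other strand).
Per1, chr11:69098771-69098830, plus strand: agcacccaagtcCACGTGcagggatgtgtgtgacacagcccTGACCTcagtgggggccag
Cry1, chr10:85185085-85185144, minus strand: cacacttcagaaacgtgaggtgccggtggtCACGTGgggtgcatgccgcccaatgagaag
Per3, chr4:151044808-151044878, minus strand: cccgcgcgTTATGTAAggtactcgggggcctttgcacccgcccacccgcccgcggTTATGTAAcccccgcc
Arntl, chr7:113207527-113207555, plus strand: gggaaggcagaaagtAGGTCAgggacgga
The E-box of Per1 began 166 bases before the transcript start and that of Cry1 began 60 bases before it. Per3 held the D-box 2 times, at 205 and 158 bases before its start, and the AGGTCA of Arntl lay 31 bases after the transcript start in one of its 2 windows. The 9 members with a window had 13 windows. Of these 9 members, 2 held CACGTG in any window, 3 held AGGTCA (Clock in addition to Per1 and Arntl), 1 held TTATGTAA and 0 held TTACGTAA. Of all 32851 windows, 7.15% held CACGTG, 16.3% held AGGTCA, 0.938% held TTATGTAA and 0.119% held TTACGTAA. Members are counted by gene and the shares by window, so these are not on the same scale. These matches describe the letters in a short window and not binding.

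The libraries did not all hold the same parts of the brain. In C_O72 and MS_W95 the summed FPKM of 8 hindbrain markers was 77.5 and 28.4, against 0.0121 to 0.0650 in the other 10 libraries, and the sum of 7 cerebellum markers was 295 and 1018 against 27.9 to 44.9. The hindbrain markers were therefore near 0 in 10 libraries labelled as brain. C_O72 and MS_W95 correlated with each other over genes at r = 0.970 and with no other library above 0.937. The cortex markers (7 genes) summed to 338 to 390 in C_W, 35.3 to 387 in C_O, 48.1 to 143 in MS_W and 231 to 272 in MS_O. The striatum markers (8 genes) summed to 93.7 to 180 in C_W, 133 to 439 in C_O, 151 to 984 in MS_W and 370 to 584 in MS_O, and the hypothalamus markers (6 genes) to 3.19 to 12.97, 2.18 to 13.4, 4.96 to 93.1 and 10.5 to 56.1. The sum of 13 markers of neurons, glia and endothelium was 799 to 1025 in the 10 other libraries, and 1239 and 1004 in C_O72 and MS_W95. Without C_O72 and MS_W95, cortex markers were lower in every stressed mouse than in every unstressed mouse, and striatum markers were higher in the stressed mice apart from the overlap with C_O30 at 439. The part of these differences in the clock gene values below was not tested. In bulk tissue, fewer cells of a type and less RNA per cell cannot be told apart.

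All 10 clock genes were expressed in all 12 libraries. FPKM is scaled to transcript length, so levels can be set side by side. The mean level over 12 libraries was highest for Nr1d1 at 40.0 FPKM, followed by Dbp at 33.5, Cry2 at 27.5, Per1 at 17.5, Cry1 at 9.21, Per2 at 8.74, Npas2 at 6.43, Per3 at 5.46, Arntl at 3.48 and Clock at 3.28. The ranges of all neighbours in this order overlapped. Nr1d1 was nevertheless above Dbp within 12 of 12 libraries, whereas Cry1 was above Per2 in 6 and Arntl above Clock in 6. The estimated counts behind these levels ran from 270 for Npas2 in C_O72 to 17040 for Cry2. Over the 10 libraries without C_O72 and MS_W95, the coefficient of variation was smallest for Cry2 at 5.5% and largest for Per2 at 31.3%.

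**Figure D1:**
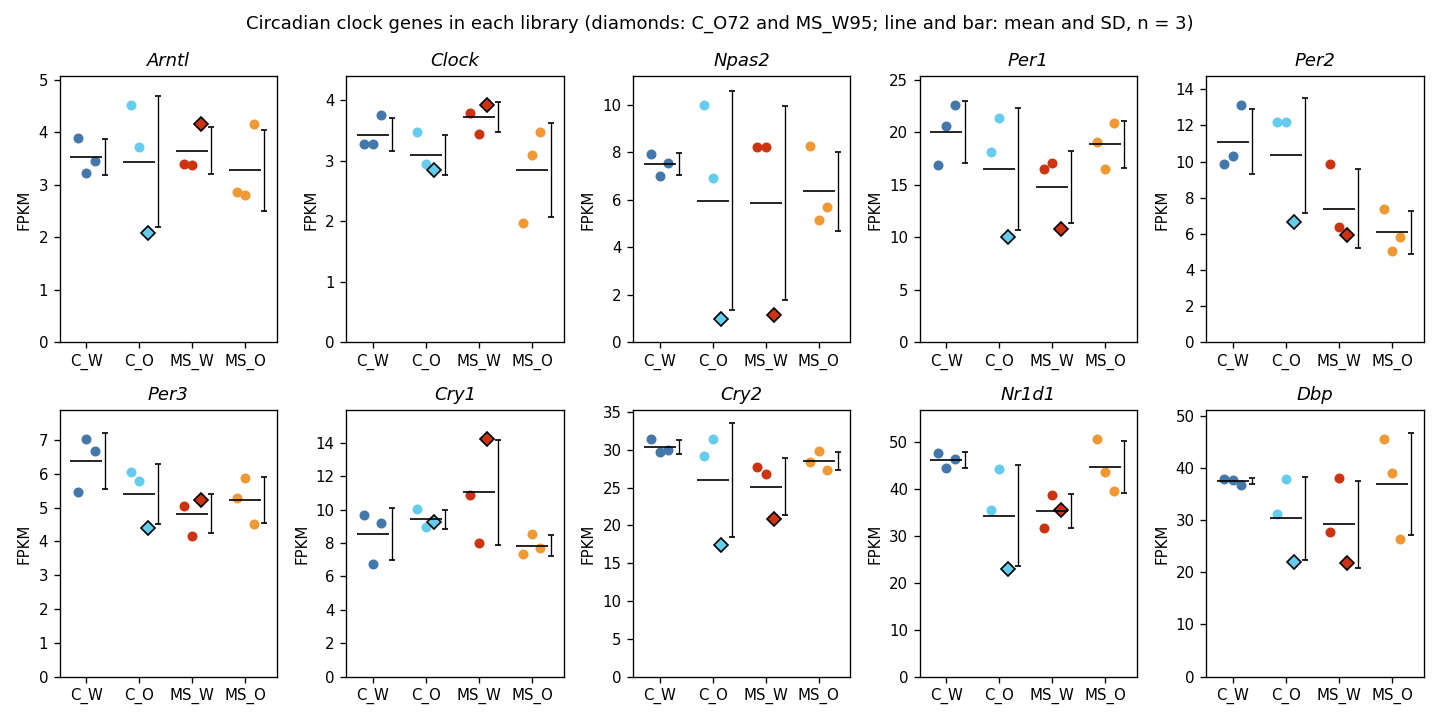
FPKM of the 10 clock genes (linear axes from 0) in each library by group, with the group mean as a line and the SD over 3 mice as a bar. Diamonds mark C_O72 and MS_W95, which are the 2 lowest libraries for Npas2, at 0.979 and 1.146 FPKM, and for Per1, Cry2 and Dbp.

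No clock gene passed an adjusted p of 0.05 in any comparison of the limma fit or of edgeR on the estimated counts. DESeq2 on those counts called Per2 alone of the 10, in the CUMS main effect, where it called 310 of all 21393 genes. In the limma fit, the share of all 21393 genes past that threshold was 0.00467% in MS_W minus C_W, MS_O minus C_O, MS_O minus MS_W and the krill oil main effect. It was 0.00935% in the CUMS main effect and 0% in C_O minus C_W and in the interaction, so the limma fit called few genes of any kind. At an unadjusted p under 0.05, 2 of the 10 clock genes were lower in MS_W than in C_W (Per2 and Per3), against 10.5% of all genes. Per2 alone was lower in MS_O than in C_O (background 8.88%) and in the CUMS main effect, which averages the stress difference over water and oil (background 12.5%). Nr1d1 alone was lower in C_O than in C_W (3.55%), Cry1 alone was lower in MS_O than in MS_W (6.09%), no member was called in the krill oil main effect (3.22%) and Nr1d1 alone was called in the interaction of CUMS and krill oil (7.23%). Each of these is 0 to 2 members of 10, near the background shares. The median log2FC of the 10 members was -0.36 in MS_W minus C_W and 0.07 in MS_O minus C_O, beside 0.06 and 0.03 over all genes, and without C_O72 and MS_W95 it was -0.18 and -0.15.

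**Figure D2:**
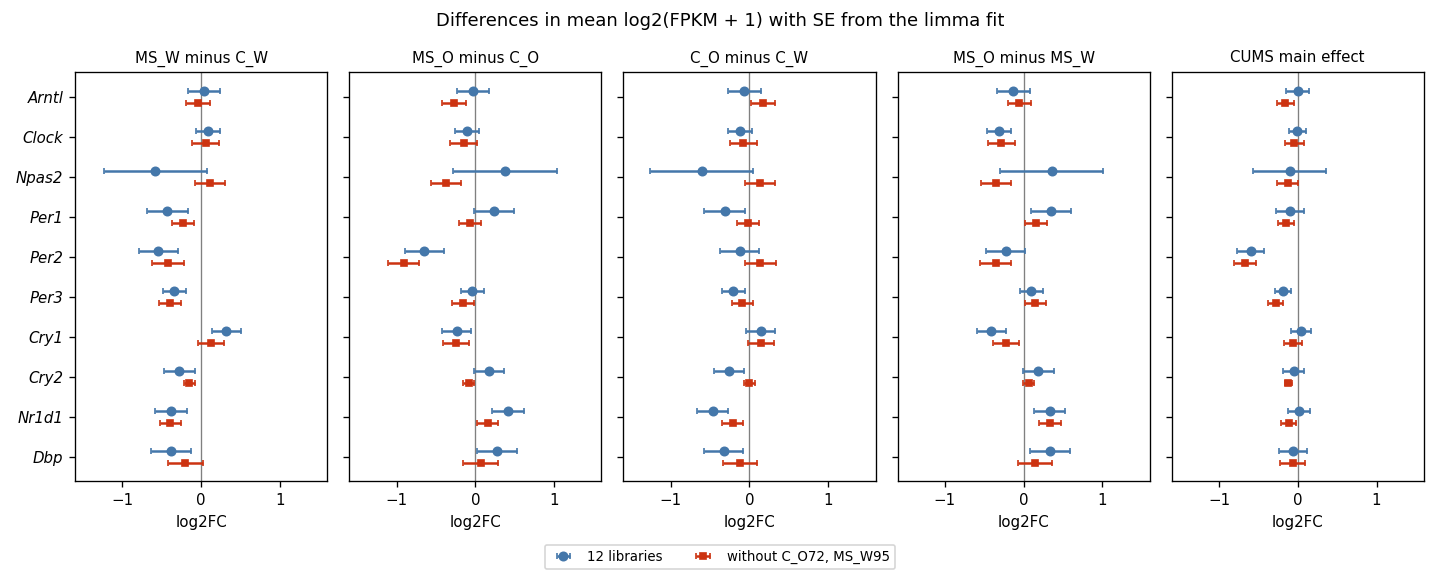
Difference in mean log2(FPKM + 1) (log2FC, horizontal axis) with its SE for each clock gene in 4 pairwise comparisons and the CUMS main effect, from 12 libraries (circles) and from 10 (squares). Per2 lies at -0.60 in the CUMS main effect with 12 libraries and at -0.66 with 10, and Npas2 changes side between both fits in the 4 pairwise comparisons.

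Per2, which encodes a core repressor of the loop (ENSMUSG00000055866, chr1:91415982-91459324), had the largest CUMS main effect of the 10 genes and was lower in stressed mice. Its level was 9.86, 10.3 and 13.1 FPKM in the 3 C_W mice and 12.2, 12.2 and 6.68 in C_O15, C_O30 and C_O72. It was 9.89, 6.40 and 5.93 in MS_W31, MS_W75 and MS_W95, and 7.39, 5.05 and 5.84 in the 3 MS_O mice. Apart from C_O72, every unstressed mouse was at or above 9.86 and 4 of the 5 stressed mice other than MS_W95 were below it, MS_W31 being the exception. The mean over water and krill oil was 10.7 ± 2.34 FPKM (SD, n = 6) in unstressed and 6.75 ± 1.72 (SD, n = 6) in stressed mice. The CUMS main effect was -0.60 ± 0.17 (log2FC ± SE, limma unadjusted p = 0.00600, adjusted p = 0.312). Permuting the mice within water and within krill oil gave an exact two-sided p of 0.025 over 400 arrangements. Within water the log2FC was -0.54 ± 0.25 (limma unadjusted p = 0.0496) and within krill oil it was -0.65 ± 0.25 (limma unadjusted p = 0.0239), and 3 mice against 3 cannot give an exact permutation p below 0.1. The interaction, which tests whether the stress difference depended on water or krill oil treatment, was -0.10 ± 0.35 (limma unadjusted p = 0.772).

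Without C_O72 and MS_W95 the stress difference of Per2 was larger in krill oil and smaller in water. The interaction in that fit was -0.49 ± 0.28 (limma unadjusted p = 0.118). The log2FC was -0.91 ± 0.20 in MS_O minus C_O (limma unadjusted p = 0.00159), -0.42 ± 0.20 in MS_W minus C_W (limma unadjusted p = 0.0650) and -0.66 ± 0.14 in the CUMS main effect (limma unadjusted p = 0.00129, adjusted p = 0.0708, exact permutation p = 0.02). In those 10 libraries the stressed mean was 59.9% of the unstressed mean. The unadjusted p of the CUMS main effect stayed under 0.05 in all 22 alternatives, and DESeq2 on the estimated counts gave an adjusted p of 0.0469, the only alternative in which a clock gene member was called. By that rule DESeq2 called 310 of all 21393 genes in the CUMS main effect. Within krill oil the limma unadjusted p moved to 0.0886 without C_O15, 0.0877 without C_O30, 0.0834 without MS_O46 and 0.0565 without MS_O78. Within water it was past 0.05 in 10 of 12 fits that left out 1 library, at 0.0507 to 0.156. The cortex marker sums given above were also lower in MS_W31, MS_W75 and the 3 MS_O mice (134 to 272) than in the unstressed mice other than C_O72 (287 to 390). Among these stressed mice the sum was 143 in MS_W31 (Per2 at 9.89 FPKM), 134 in MS_W75 (6.40) and 244 in MS_O13 (7.39). It was 231 in MS_O46 (5.05) and 272 in MS_O78 (5.84). The part of the cortex sums in the Per2 values was not tested.

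The other Per genes differed less. Per3 (ENSMUSG00000028957, chr4:151003652-151044665), a PER paralogue with a minor part in the rhythm of mice, was at 5.45, 7.04 and 6.68 FPKM in C_W and at 5.06, 4.16 and 5.23 in MS_W, so these groups did not overlap. It was at 6.06, 5.77 and 4.40 in C_O and at 5.27, 5.88 and 4.53 in MS_O, which did overlap. The log2FC of MS_W minus C_W was -0.34 ± 0.15 (limma unadjusted p = 0.0386, adjusted p = 0.459). It was -0.40 ± 0.13 without C_O72 and MS_W95 (limma unadjusted p = 0.0177), where the CUMS main effect was also past 0.05, at -0.28 ± 0.10 (limma unadjusted p = 0.0187). In water the limma unadjusted p moved to 0.126 without C_W64, 0.1003 without C_W70, 0.0533 without MS_W31 and 0.138 without MS_W75. Per3 lies within the span of Camta1 on the same strand (9.42 to 19.8 FPKM), so its reads may be shared.

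Per1 (ENSMUSG00000020893, chr11:69095217-69109960), the PER gene that responds fastest to light and hormones, was at 16.9, 20.6 and 22.6 FPKM in C_W, 18.1, 21.4 and 10.1 in C_O, 16.5, 17.1 and 10.8 in MS_W and 19.1, 16.5 and 20.9 in MS_O. C_O72 and MS_W95 were the lowest of the 12 libraries, and the other 10 lay between 16.5 and 22.6. No comparison of Per1 reached an unadjusted p of 0.05 with 12 or 10 libraries.

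Of the cryptochromes, which repress the BMAL1 pairs together with PER, Cry2 was the more abundant and the steadier. Cry2 (ENSMUSG00000068742, chr2:92403646-92434043) was at 31.5, 29.8 and 30.0 FPKM in C_W and 27.8, 26.8 and 20.8 in MS_W, which did not overlap. It was at 29.2, 31.5 and 17.4 in C_O and at 28.4, 29.8 and 27.4 in MS_O. The lowest values were those of C_O72 and MS_W95. Without them the CUMS main effect of Cry2 was -0.12 ± 0.05 (limma unadjusted p = 0.0390, adjusted p = 0.203), with 4 of 5 stressed mice below the lowest unstressed mouse, whereas with all 12 libraries it was -0.05 ± 0.14 (limma unadjusted p = 0.707).

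Cry1 (ENSMUSG00000020038, chr10:85131700-85185064) was at 9.66, 6.76 and 9.18 FPKM in C_W, 10.1, 8.96 and 9.26 in C_O, 10.9, 7.99 and 14.3 in MS_W and 7.32, 8.52 and 7.71 in MS_O. All 3 MS_O mice were below all 3 C_O mice, while the MS_W and C_W mice overlapped. The log2FC of MS_O minus MS_W was -0.41 ± 0.18 (limma unadjusted p = 0.0472, adjusted p = 0.816). MS_W95 had the highest Cry1 level of any library, and without it and C_O72 the difference was -0.23 ± 0.17 (limma unadjusted p = 0.205). The call was lost in 10 of 12 fits that left out 1 library, at a limma unadjusted p of 0.0521 to 0.202. It was also lost with only the 2 groups compared (limma unadjusted p = 0.0833).

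Nr1d1 and Dbp are direct BMAL1 targets and the most abundant members. Nr1d1 (ENSMUSG00000020889, chr11:98767932-98775333), which encodes the repressor REV-ERBα, was at 47.6, 44.3 and 46.3 FPKM in C_W, the group with the least spread. It was at 35.5, 44.2 and 22.9 in C_O, at 31.5, 38.6 and 35.5 in MS_W, and at 50.6, 43.6 and 39.5 in MS_O. Both the MS_W and the C_O values lay below all C_W values, and all MS_O values lay above all MS_W values. The stress difference was -0.38 ± 0.20 in water (limma unadjusted p = 0.0823) and 0.41 ± 0.20 in krill oil (limma unadjusted p = 0.0645). The latter was 0.16 ± 0.14 without C_O72 and MS_W95 (limma unadjusted p = 0.2785). The interaction with 12 libraries was 0.80 ± 0.28 (limma unadjusted p = 0.0175, adjusted p = 0.665). C_O minus C_W was -0.47 ± 0.20 (limma unadjusted p = 0.0404, adjusted p = 0.908), and without C_O72 and MS_W95 it was -0.21 ± 0.14 (limma unadjusted p = 0.156). That call was lost in 7 of 12 fits that left out 1 library, with the largest move without C_O72 (limma unadjusted p = 0.150). Without those 2 libraries, MS_W minus C_W was -0.39 ± 0.14 (limma unadjusted p = 0.0195), MS_O minus MS_W was 0.34 ± 0.14 (limma unadjusted p = 0.0368) and the interaction was 0.55 ± 0.19 (limma unadjusted p = 0.0203), none past the adjusted threshold. The interaction was under an unadjusted p of 0.05 in all 22 alternatives. Cortex marker sums were also lower in MS_W (48.1 to 143) than in C_W (338 to 390) and MS_O (231 to 272). Those of MS_O were in turn below those of C_W, while Nr1d1 in these groups overlapped. In C_O the sums were 287 in C_O15, 387 in C_O30 and 35.3 in C_O72. The part of these sums in the result was not tested.

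Dbp (ENSMUSG00000059824, chr7:45705088-45710203), a PAR bZIP activator and a common readout of clock output, was at 37.9, 37.7 and 36.7 FPKM in C_W. It was at 31.2, 37.9 and 22.1 in C_O, at 27.6, 38.1 and 21.8 in MS_W, and at 45.6, 39.0 and 26.4 in MS_O. The 3 C_W mice were within 1.17 FPKM of each other, while every other group spanned at least 15.8 FPKM. No comparison of Dbp reached an unadjusted p of 0.05, with 12 or 10 libraries. The 3′ end of Dbp overlaps Sphk2 on the opposite strand (4.85 to 9.64 FPKM).

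In the limma fit the activators showed no difference past an unadjusted p of 0.05 in any comparison, with 12 or 10 libraries. Arntl (ENSMUSG00000055116, chr7:113207465-113314126) was at 3.90, 3.24 and 3.46 FPKM in C_W, 4.53, 3.72 and 2.09 in C_O, 3.41, 3.38 and 4.17 in MS_W and 2.87, 2.80 and 4.16 in MS_O. Clock (ENSMUSG00000029238, chr5:76209868-76304792) was at 3.28, 3.28 and 3.75 in C_W, 3.47, 2.95 and 2.86 in C_O, 3.79, 3.45 and 3.93 in MS_W and 1.97, 3.09 and 3.49 in MS_O, and it overlaps the pseudogene Ube2n-ps1 on the same strand (6.80 to 12.4 FPKM). For both genes the groups overlapped in each comparison. In the krill oil main effect Clock was at -0.22 ± 0.11 (log2FC ± SE, limma unadjusted p = 0.0687), with an exact permutation p of 0.03 over 400 arrangements within unstressed and stressed mice, and an exact permutation p of 0.18 without C_O72 and MS_W95. Npas2 (ENSMUSG00000026077, chr1:39193731-39363236), a CLOCK paralogue of the forebrain, was at 7.93, 7.02 and 7.56 in C_W, 10.01, 6.94 and 0.979 in C_O, 8.22, 8.21 and 1.146 in MS_W and 8.28, 5.14 and 5.68 in MS_O. The low values were C_O72 and MS_W95, the libraries with hindbrain markers and the lowest cortex sums.

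Counting genes whose groups did not overlap gave 3 of 10 members in MS_W minus C_W, all lower (Per3, Cry2 and Nr1d1), against 24.6% of all tested genes. It gave Cry1, lower, in MS_O minus C_O (background 12.2%), Nr1d1, lower, in C_O minus C_W (9.42%) and Nr1d1, higher, in MS_O minus MS_W (12.3%). Without C_O72 and MS_W95, unadjusted calls were 2 of 10 members in MS_W minus C_W (background 15.4%), 1 in MS_O minus C_O (13.6%), 0 in C_O minus C_W (4.06%), 1 in MS_O minus MS_W (8.54%), 3 in the CUMS main effect (22.2%), 0 in the krill oil main effect (4.96%) and 1 in the interaction (7.51%). Over those 10 libraries all 10 members had a negative CUMS main effect, with a median of -0.12 beside 0.05 over all genes. With all 12 libraries 7 of 10 were negative, with a median of -0.05.

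The levels of the members were then set against each other over mice. Because C_O72 and MS_W95 stood apart as a pair, correlations were read over the 10 other libraries, among 45 pairs of members. Over all 12 libraries 3 pairs passed an adjusted permutation p of 0.05 and 13 an unadjusted one. Those 3 were Nr1d1 with Dbp, Per1 with Cry2 and Cry2 with Dbp, and without C_O72 and MS_W95 the r was 0.22 for Per1 with Cry2 and 0.38 for Cry2 with Dbp. Over the 10 libraries no pair passed an adjusted p of 0.05, and 4 had an unadjusted permutation p under 0.05. Nr1d1 and Dbp, both E-box targets, varied together (r = 0.79, permutation p = 0.00721, adjusted p = 0.324, rho = 0.54 with permutation p = 0.113). On deviations from the group means their r was 0.89, and without C_O15 and MS_W31, the libraries farthest from the Nr1d1 median, it was 0.65. Dbp varied against Clock (r = -0.69, permutation p = 0.0242, adjusted p = 0.424, rho = -0.82 with permutation p = 0.00593 and adjusted p = 0.267) and against Arntl (r = -0.63, permutation p = 0.0496, adjusted p = 0.474, rho = -0.67 with permutation p = 0.0384 and adjusted p = 0.642). Without the 2 libraries farthest from the median these were -0.55 for Clock (without C_O30 and MS_O13) and -0.62 for Arntl (without C_O15 and MS_O46). With all 12 libraries the r of Dbp was -0.48 with Clock (permutation p = 0.110) and -0.05 with Arntl (permutation p = 0.884). Per3 and Cry2 varied together (r = 0.69, permutation p = 0.0283, adjusted p = 0.424, rho = 0.65 with permutation p = 0.0486), but at only 0.14 on deviations from the group means. With all 12 libraries the r of Per3 with Cry2 was 0.54, and 0.44 on deviations from the group means.

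**Figure D3:**
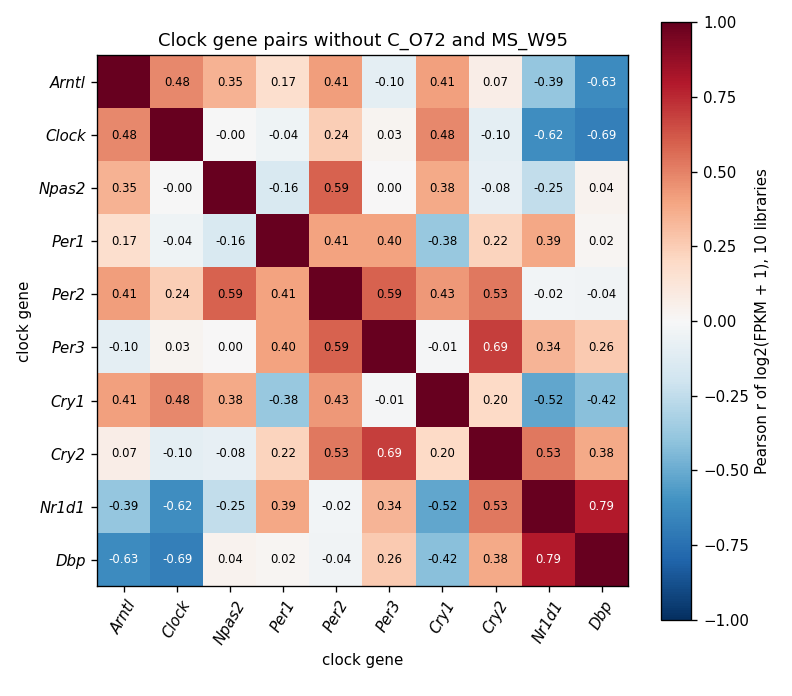
Pearson r of log2(FPKM + 1) for each pair of clock genes over the 10 libraries without C_O72 and MS_W95, red for positive and blue for negative. The strongest positive cell is Nr1d1 with Dbp at 0.79 and the strongest negative cell is Dbp with Clock at -0.69.

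The genes most like Dbp over the 10 libraries, among 13621 genes with a mean of at least 1 FPKM, were Usp2 (r = 0.93), Sf3b5 (0.89), Gm49492 (0.88), Gm43674 (0.86) and Gm10699 (0.86). Usp2, a deubiquitinase gene with clock output rhythm, ranked 1 and Nr1d1 ranked 31. With all 12 libraries, which include the pair that stands apart, they were Cep83os (0.94), Gm43674 (0.93), Tbc1d24 (0.92), Gm10699 (0.91) and Gm7308 (0.90). The genes most like Arntl over 10 libraries were A730081D07Rik (0.90), Fam171a2 (0.87), Atxn2 (0.86), Bud23 (0.85) and Susd6 (0.85), and with 12 libraries Kansl1 (0.87), Kdm7a (0.85), Tent4a (0.83), Spata2 (0.82) and Gramd4 (0.81). No member of the clock list was among the first 5 for Arntl.

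Among 20 other clock genes, all tested, none passed an adjusted p of 0.05 in the limma fit of 12 libraries. At an unadjusted p under 0.05, 4 of the 20 were lower in MS_W than in C_W and none was higher (10.5% of all genes were called in either direction), and 3 were lower and none higher in the CUMS main effect (12.5% of all genes). Bhlhe40 (Dec1), a repressor that competes at E-boxes, was at 37.7, 39.4 and 46.4 FPKM in C_W, 41.2, 42.9 and 18.2 in C_O, 22.1, 19.2 and 19.4 in MS_W and 31.5, 21.6 and 23.0 in MS_O. Apart from C_O72 every unstressed mouse was above every stressed mouse. Its log2FC was -0.99 ± 0.28 in MS_W minus C_W (limma unadjusted p = 0.00509, adjusted p = 0.303) and -0.66 ± 0.20 in the CUMS main effect (limma unadjusted p = 0.00690, adjusted p = 0.312). Without C_O72 and MS_W95 it fell past the adjusted threshold, by 0.96 in MS_W minus C_W (limma adjusted p = 0.0344, where 1.15% of genes were called) and by 0.84 in the CUMS main effect (limma adjusted p = 0.0222, where 0.762% were called). No member was called by that adjusted rule in either comparison.

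Hlf, a PAR bZIP relative of Dbp, was at 40.0, 23.8 and 41.2 FPKM in C_W and 13.7, 20.2 and 11.4 in MS_W, without overlap, and at 30.7, 19.4 and 16.2 in C_O and 20.9, 18.4 and 12.1 in MS_O. Its log2FC was -1.16 ± 0.31 in MS_W minus C_W (limma unadjusted p = 0.00344) and -0.75 ± 0.22 in the CUMS main effect (limma unadjusted p = 0.00611). Rorb, an ROR activator gene with high expression in cortex, was at 2.55 to 3.87 FPKM in C_W and 0.915 to 1.71 in MS_W, with a log2FC of -0.80 ± 0.27 (limma unadjusted p = 0.0145) and a CUMS main effect of -0.51 ± 0.19 (limma unadjusted p = 0.0236). Csnk1e, which encodes casein kinase 1 epsilon, a kinase of PER proteins, had an interaction of 0.58 ± 0.19 (limma unadjusted p = 0.0116), 0.32 ± 0.13 in MS_O minus MS_W (limma unadjusted p = 0.0380) and 0.22 ± 0.13 in MS_O minus C_O (limma unadjusted p = 0.130). These were 0.36, 0.23 and 0.10 without C_O72 and MS_W95. Csnk1e was at 16.7 to 17.4 FPKM in C_W, at 16.8, 14.3 and 11.7 in C_O, at 11.4 to 14.7 in MS_W and at 15.3 to 18.2 in MS_O.

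**Figure D4:**
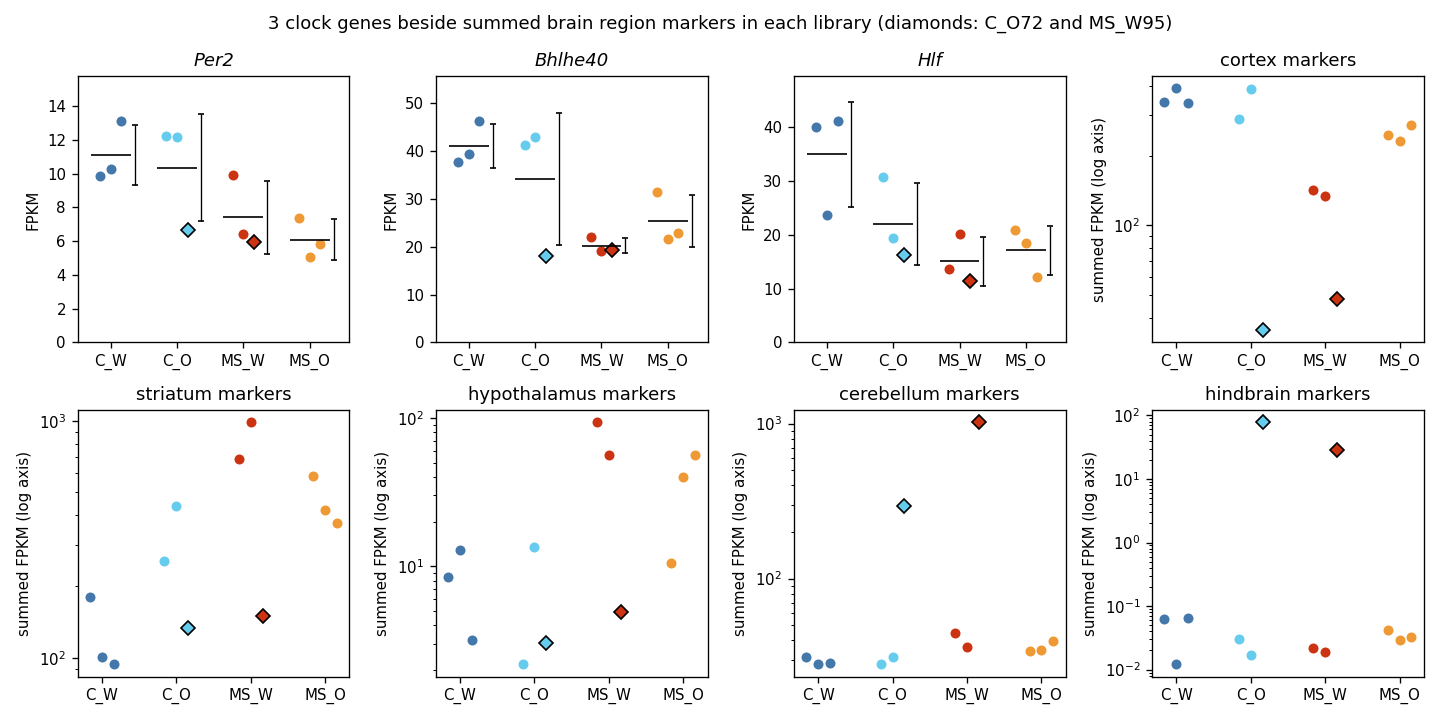
FPKM of Per2, Bhlhe40 and Hlf (linear axes, mean as a line and SD over 3 mice as a bar) beside the summed FPKM of brain region markers (log axes) in each library by group, with diamonds for C_O72 and MS_W95. Cortex markers lie at 134 to 272 in the stressed mice other than MS_W95 and at 287 to 390 in the unstressed mice other than C_O72, the same split as Bhlhe40.

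The smallest p of the krill oil comparisons belonged to genes whose FPKM took separate levels from mouse to mouse. Gsk3b, a kinase gene of the clock and of many other pathways, was at 2.92 to 3.21 in C_W and 8.81 to 17.8 in C_O, and at 9.11, 4.001 and 3.35 in MS_W and 2.96, 2.93 and 8.79 in MS_O. Its log2FC was 1.61 ± 0.41 in C_O minus C_W (limma unadjusted p = 0.00271, adjusted p = 0.908), -1.21 ± 0.41 in MS_O minus C_O (limma unadjusted p = 0.0140), 0.72 ± 0.29 in the krill oil main effect (limma unadjusted p = 0.0327) and -1.78 ± 0.58 in the interaction (limma unadjusted p = 0.0114). Cipc, which encodes a CLOCK interacting repressor, was at 20.5, 11.7 and 21.4 in C_W, 6.69 to 7.01 in C_O, 22.0, 7.56 and 7.55 in MS_W and 1.93 to 6.28 in MS_O. Its log2FC was -1.18 ± 0.31 in the krill oil main effect (limma unadjusted p = 0.00310, adjusted p = 1.00), -1.21 ± 0.44 in C_O minus C_W (limma unadjusted p = 0.0192) and -1.16 ± 0.44 in MS_O minus MS_W (limma unadjusted p = 0.0238). Tef, a further PAR bZIP gene, was at 17.0 and 18.4 FPKM in MS_O13 and C_O30 and at 35.8 to 60.0 in the other libraries, with a krill oil main effect of -0.66 ± 0.30 (limma unadjusted p = 0.0516). The remaining genes named by rank had a limma unadjusted p above 0.05. These were Hlf in C_O minus C_W (-0.65 ± 0.31), Usp2 in MS_O minus C_O (0.26 ± 0.15), and Fbxl21, the gene of a ubiquitin ligase of CRY, in MS_O minus MS_W (-0.34 ± 0.17) and in the interaction (-0.52 ± 0.24). Fbxl21 was low, at 0.345 to 1.27 FPKM. Its interaction was under an unadjusted p of 0.05 in 7 alternatives and not in 14, and DESeq2 on the estimated counts put it at -1.32 (DESeq2 unadjusted p = 0.0226). No alternative took it past the adjusted threshold.

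Inputs to the clock were read from 3 further lists. The 10 glucocorticoid induced genes had a median CUMS main effect of -0.42 beside 0.05 over all genes, with 4 lower and none higher at an unadjusted p under 0.05 (12.5% of all genes were called). The median was -0.24 without C_O72 and MS_W95, with 4 lower and 1 higher (22.2% of all genes). Zbtb16, a glucocorticoid induced zinc finger gene, was at 3.93 to 7.95 FPKM in C_W and 0.893 to 1.77 in MS_W, and Plin4, a lipid droplet gene, at 2.87 to 3.64 and 0.428 to 1.55, whereas Fkbp5 was at 3.95 to 4.29 and 1.57 to 5.00. These 3 genes were picked once their values were known. The 10 immediate early genes had a median CUMS main effect of -0.15 with none called, and of -0.06 with 2 lower without C_O72 and MS_W95. Their median was -0.73 in MS_W minus C_W with 1 lower (10.5% of all genes were called) and 0.43 in MS_O minus C_O with none called (8.88%), and the interaction had a median of 1.29 with 1 higher (7.23%). In the 10 other libraries these medians were -0.30 with 3 lower (15.4%), 0.19 with 1 lower and 1 higher (13.6%), and 0.57 with 1 higher (7.51%). Their summed FPKM was 95.4 and 59.5 in those 2 libraries and 181 to 326 in the other 10. Of the 10 suprachiasmatic nucleus markers, 3 were under 1 FPKM in all 12 libraries and the sum was 11.8 to 74.1. The 2 highest sums, 50.5 and 74.1 in MS_W31 and MS_W75, held 32.3 and 59.3 FPKM of Avp, the vasopressin gene that other hypothalamic nuclei also express. Of these markers 8 were tested, with a median CUMS main effect of 0.42 and 3 higher and none lower at an unadjusted p under 0.05 (12.5% of all genes). Without C_O72 and MS_W95 the median was 0.36, with 5 higher and 1 lower (22.2%). In that fit 1 passed the adjusted threshold in the CUMS main effect (0.762% of all genes) and 2 in MS_W minus C_W (1.15%).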

How the data were processed

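Poly(A) RNA of 12 mouse brains was sequenced as dUTP libraries, 1 per mouse. Per the labels and the study's methods, the authors trimmed reads with cutadapt 1.9, aligned them to mm10 with HISAT2 2.0.4, assembled transcripts with StringTie 1.3.4d and estimated expression with Ballgown. The deposited FPKM (sequenced fragments scaled to transcript length and to the mapped fragments of the library) was used as given, and a gene without an estimate is listed at 0.0001. The deposited estimated count values, which sum to between 50912906 and 75678721 per library, were rounded to whole numbers for 2 alternatives only. Strand use in counting is not given in the sources used here.

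limma 3.58.1 (lmFit, eBayes with trend, R 4.3.3) was fitted to log2(FPKM + 1) of the 21393 genes whose mean FPKM reached 0.1, with the 4 groups in 1 fit, and p was adjusted by Benjamini and Hochberg over these genes. The test was checked on simulated data. Exact permutation tests of single genes compared mice, and correlations used 100000 permutations of log2(FPKM + 1). The alternatives tried were a pseudocount of 0.1 or 0.01, a filter at a mean FPKM of 1 or none, quantile normalization, median centring, fits of only the 2 groups compared, robust eBayes, edgeR 4.0.16 and DESeq2 1.42.0 on the estimated counts, leaving out each library, and leaving out C_O72 and MS_W95 together. After the data were seen, the likeness search, the permutation test and the region sums were added for the 10 other libraries.

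Every one of the 10 clock genes is described. A log2FC is given where its unadjusted p was under 0.05, with values beside it from the 10 libraries. Of 20 other clock genes, those past the adjusted threshold were to be named, or else the 3 with the smallest p of each comparison. Genes of like pattern to Dbp and Arntl were the 5 with the highest r among genes whose mean FPKM reached 1. The members and all lists (other clock genes, immediate early genes, glucocorticoid induced genes, brain cells, suprachiasmatic nucleus, cortex, striatum, cerebellum, hypothalamus, hindbrain) were chosen with earlier results of these data known. Promoter windows are from RefSeq (GRCm38.p6). No column of another series was found in the table.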

Additional observations from a re-analysis of the deposited data

Results flagged for a closer look

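Nr1d1 was flagged because its stress difference differed between water and krill oil by a test of the difference itself. The interaction of CUMS and krill oil was 0.80 (log2FC, SE 0.28, limma unadjusted p = 0.0175), and it did not pass the adjusted threshold (adjusted p = 0.665). Among all 21393 genes, 7.23% had an unadjusted p under 0.05 in this term. All 3 MS_W values (31.5 to 38.6 FPKM) were below all 3 C_W values (44.3 to 47.6), and the MS_O values (39.5 to 50.6) overlapped those of C_O (22.9 to 44.2).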

How the results depend on the processing

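The number of clock genes past an adjusted p of 0.05 was 0 in each comparison under all alternatives except DESeq2. It called 1 (Per2) in the CUMS main effect, where it called 310 of all 21393 genes. For an unadjusted p under 0.05, the CUMS main effect gave 2 instead of 1 with quantile normalization, median centring, edgeR and DESeq2, and 3 without C_O72 and MS_W95. C_O minus C_W gave 0 instead of 1 with median centring, with only the 2 groups compared, without C_O72 and MS_W95, and with edgeR and DESeq2. MS_W minus C_W gave 1 instead of 2 with a pseudocount of 0.01, with no filter and with a filter at a mean FPKM of 1, where the limma unadjusted p of Per2 was 0.0505, 0.0527 and 0.0506, it gave 3 with only the 2 groups compared, and the interaction gave 2 instead of 1 with DESeq2. Leaving out 1 library at a time gave 0 to 5 in MS_W minus C_W, 1 to 3 in the CUMS main effect, 1 to 4 in the interaction, and 0 to 1 in C_O minus C_W, MS_O minus C_O, MS_O minus MS_W and the krill oil main effect. The 5 were reached without C_O72, when Per1, Cry2 and Nr1d1 joined Per2 and Per3 at a limma unadjusted p of 0.0382, 0.0284 and 0.0106, and the 4 without C_O30, when Per1, Cry2 and Dbp joined Nr1d1 at 0.0318, 0.0472 and 0.0447. Of the other clock genes, Bhlhe40 and Hlf kept their unadjusted calls in MS_W minus C_W and the CUMS main effect in each fit, Rorb lost its call in the CUMS main effect without C_W1, C_O15, C_O30, MS_W95 or MS_O46 (at most 0.0590) and in MS_W minus C_W without C_W1 or MS_W95 (at most 0.0570), and Cipc lost its call in MS_O minus MS_W without MS_W31 or MS_O13 (at most 0.108) and in C_O minus C_W without C_W1 or C_W70 (at most 0.0626). Gsk3b lost its call in MS_O minus C_O without C_O15, MS_O13 or MS_O46 (at most 0.0622) and in the krill oil main effect in 7 of 12 such fits, and Csnk1e in MS_O minus MS_W in 7 of 12. Of the printed log2FC of members, the CUMS main effect of Cry2 ranged from -0.181 to 0.0244 over the fits without 1 library and was above 0 without C_O30 or MS_W95 (0.01), and the interaction of Per2 ranged from -0.364 to 0.0987 and was above 0 without C_O15 (0.0282), C_O30 (0.0258), MS_W31 or MS_O46 (0.0054). No log2FC of a member with an unadjusted p under 0.05 changed direction. No paired analysis was possible because the groups share no mouse number. The members had 270 to 17040 estimated counts per library. In the main limma fit, p rests on a spread between mice that was pooled over the 4 groups of 3 and moderated over all tested genes. The cause of these moves was not tested.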
